A study of Homo sapiens with 6 samples.

Results

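The acetylcholine receptor genes were examined in EndoC-βH1 cells (EndoCBH1 in the labels), an established human pancreatic beta cell line. Members were the rows of the deposited table whose symbol is CHRNA, CHRNB, CHRND, CHRNE, CHRNG or CHRM, alone or followed by a number. The rule took 11 of 16792 genes, 9 nicotinic (CHRNA1, CHRNA3, CHRNA5, CHRNA7, CHRNA10, CHRNB1, CHRNB2, CHRNB4 and CHRND) and 2 muscarinic (CHRM3 and CHRM4). The gene table used for names holds 21 receptor genes of these classes, and the other 10, among them CHRNA4, CHRNA9, CHRNE, CHRNG and CHRM1, were not analysed here. The family was chosen with the lower level of CHRNA1 already known, so differences between the groups are described for its members and support nothing by themselves.

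The 3 siMNX1 libraries came from cells transfected with siRNA against the homeobox gene MNX1 (genotype label MNX1 knock down), and the 3 siNT libraries from cells transfected with a non-targeting siRNA (genotype label WT). The study's title concerns MNX1, somatostatin and PERCC1. The labels do not say whether replicate numbers mark separate cultures or siRNA sequences, so p-values and intervals measure only the spread between these libraries, which may be technical. All libraries come from 1 cell line.

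Acetylcholine is released by parasympathetic nerves in the islet and, in human islets, also by alpha cells, and it raises insulin release at stimulating glucose. It acts through muscarinic receptors, which couple to G proteins, and nicotinic receptors, cation channels built from a ring of subunits around a pore. In the beta cell the CHRM3 receptor couples to Gq, phospholipase C and calcium release, whereas CHRM4 couples to Gi. CHRNA1 is the acetylcholine-binding subunit of the muscle-type channel, which it forms with CHRNB1, CHRND and either CHRNG or CHRNE at the nerve-muscle endplate.

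Values are the authors' normalized counts, whose depth in reads is unknown. Deposited totals ran from 18436560 to 18704645 in siMNX1 libraries and from 18406479 to 18600819 in siNT libraries, as the normalization sets them. The targeted MNX1 transcript had 1885, 1708 and 1751 normalized counts in siMNX1 replicates 1 to 3, against 2039, 2033 and 1988 in siNT replicates 1 to 3. Its log2 fold change was -0.18 and did not pass the threshold of an adjusted p of 0.05 (limma, adjusted p = 0.116). SST, which encodes somatostatin, had 858 ± 24.5 in siMNX1 and 220 ± 16.6 in siNT (SD, n = 3 each). All 8 fixed beta cell markers were listed, 4 with a log2 fold change above 0 and 4 below, and limma called MAFA (0.56) and PCSK1 (0.40) higher and G6PC2 (-0.36) lower. INS had 119146 to 130171 in siMNX1 and 107169 to 114592 in siNT and was not called. Over all genes, 335 were higher and 223 lower with siMNX1, 3.32% in all, and the groups did not overlap for 24.0% of genes. With each library left out in turn, 133 to 257 were higher and 64 to 179 lower.

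The promoter of CHRNA1 is printed because CHRNA1 was the member that stood apart between the groups. It is the 250 bases before the RefSeq start site (GRCh38.p14, chr2:174764473-174764722, minus strand, read in the direction of transcription), and capitals mark each TAAT on either strand and each CANNTG (E-box, N being any base). Since GENCODE 29 has CHRNA1 transcripts that begin further upstream, this window lies inside its span of the gene.
CHRNA1 promoter: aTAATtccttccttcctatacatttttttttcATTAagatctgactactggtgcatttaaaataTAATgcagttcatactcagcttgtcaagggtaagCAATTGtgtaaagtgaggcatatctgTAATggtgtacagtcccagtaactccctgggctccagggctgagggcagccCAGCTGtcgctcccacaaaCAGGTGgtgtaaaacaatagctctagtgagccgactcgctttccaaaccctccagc

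TAAT is the core that homeodomain proteins such as MNX1 recognise, and E-boxes bind basic helix-loop-helix factors, among them the myogenic factors that drive the chick and mouse Chrna1 genes in muscle. The window held 4 TAAT matches, which begin 249, 218, 186 and 126 bases before the start site, and 3 CANNTG matches, at 152, 75 and 56 bases. The longer word TAATTA, which contains TAAT on both strands, was in 0 of the 10 member promoters with an entry (CHRNA5 had none). TAAT was in 2 of these 10, CHRNA1 with 4 matches and CHRNB1 with 1, and CANNTG was in 8 of 10. Of 27305 RefSeq promoters cut to the same 250 bases, 4.49% held TAATTA, 48.2% held TAAT and 62.2% held CANNTG. Such words are common, and a match describes letters only. The CHRNA1 window had a GC content of 44.8%, while the other 9 member promoters had 55.2% to 80.4%.

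Among the muscle-type subunit genes, CHRNA1 was at 0.469 times its siNT level in siMNX1 cells, while CHRNB1 and CHRND lay close to theirs. CHRNA1 (ENSG00000138435) lies on the minus strand of chromosome 2 from 174747592 to 174787935 (GRCh38). Its normalized counts were 164, 127 and 147 in siMNX1 replicates 1 to 3, against 284, 344 and 305 in siNT replicates 1 to 3. Every siMNX1 library was below every siNT library, and the highest siMNX1 value was well under the lowest siNT value. The means were 146 ± 18.7 in siMNX1 and 311 ± 30.5 in siNT (SD, n = 3 each), 2.13-fold lower in siMNX1. The log2 fold change, taken on value + 1 here and throughout, was -1.09 with a 95% interval of -1.38 to -0.80. By that value CHRNA1 ranked 17 of the 223 genes called lower, and 87 of all 16792 genes. It ran from -1.18 to -0.99 when each library was left out in turn. In bulk RNA, fewer cells with the transcript and less of it per cell cannot be told apart.

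CHRNB1 (chromosome 17, 7445061 to 7457707, plus strand), the beta subunit of the muscle channel, had 172, 187 and 179 in siMNX1 libraries, against 168, 140 and 205 in siNT libraries. The siMNX1 values lay within the wider siNT range, and the log2 fold change was 0.08 (95% interval -0.25 to 0.41). Of CHRNB1 exon bases 14.6% are also exon of ENSG00000272884 on the same strand. ENSG00000272884 had 14.2 ± 14.7 in siMNX1 and 7.20 ± 6.66 in siNT. CHRND (chromosome 2, 232525993 to 232536667, plus strand), the delta subunit, had 47.2, 59.3 and 42.2 in siMNX1 libraries, against 56.9, 42.2 and 54.3 in siNT libraries. The groups overlapped, with a log2 fold change of -0.05 (95% interval -0.53 to 0.43). Leaving out siNT replicate 2 turned the CHRNB1 difference to -0.05. The CHRND difference became 0.06 without siMNX1 replicate 3, 0.03 without siNT replicate 1 and 0.00095 without siNT replicate 3.

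**Figure D1:**
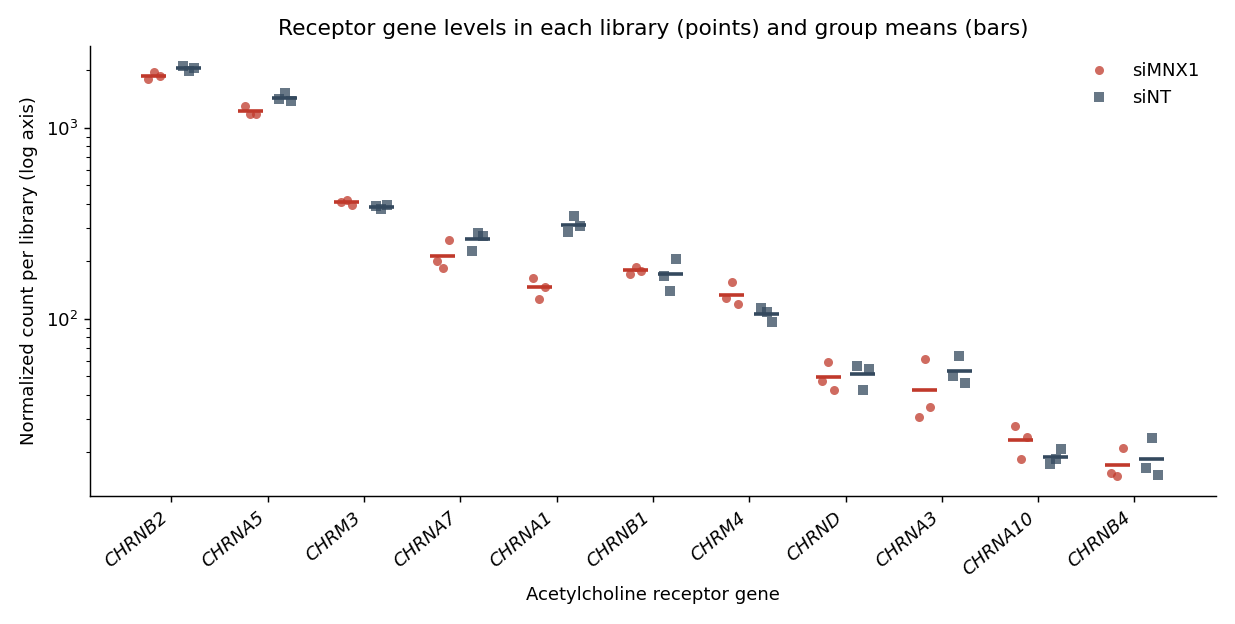
Normalized count (log axis) of each receptor gene in each library, with siMNX1 circles to the left of siNT squares and a bar at each group mean. CHRNA1 is at 127 to 164 in siMNX1 and 284 to 344 in siNT, while the groups overlap for 6 of the other 10 genes.

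The subunit balance was then taken within libraries, per length, dividing each value by the bases in exons of the gene's protein-coding transcripts in GENCODE 29. The CHRNA1 level was 0.930, 0.661 and 0.800 times that of CHRNB1 in siMNX1 replicates 1 to 3, against 1.64, 2.38 and 1.44 times in siNT replicates 1 to 3. With these lengths CHRNA1 was below CHRNB1 in each siMNX1 library and above it in each siNT library. With the longest transcript as the length this order in siMNX1 is lost: CHRNA1 averaged 73.7 and CHRNB1 69.96 normalized counts per kb in siMNX1, and 157 and 66.97 in siNT. The ratio of CHRNA1 to CHRND was 2.97 ± 0.760 in siMNX1 and 6.12 ± 1.64 in siNT (SD, n = 3 each), again with no overlap. The ratio of CHRNB1 to CHRND was 3.70 ± 0.549 in siMNX1 and 3.37 ± 0.420 in siNT, with overlap. The ratios restate the lower CHRNA1 against its partners. Another length moves a ratio by the same factor in every library.

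**Figure D2:**
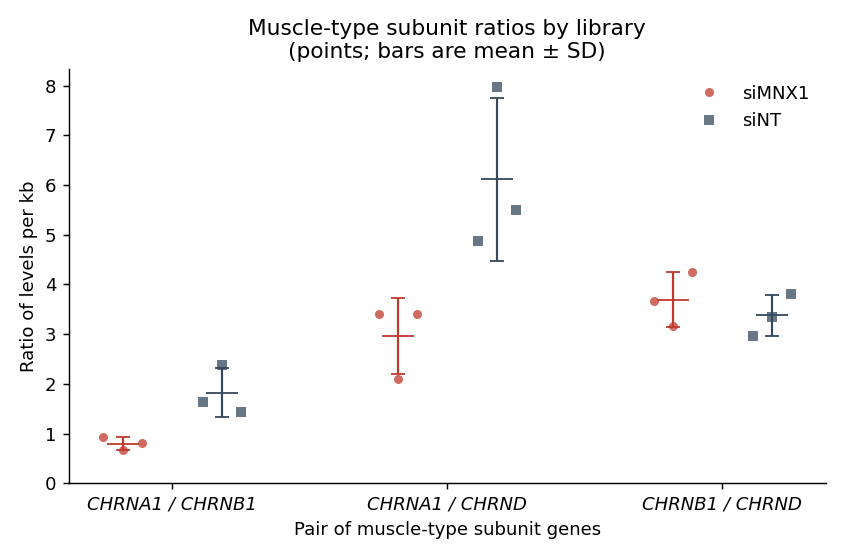
Ratio of levels per kb for pairs of muscle-type subunit genes in each library, with siMNX1 circles to the left of siNT squares and bars at mean ± SD (n = 3). CHRNA1 over CHRNB1 is 0.661 to 0.930 in siMNX1 and 1.44 to 2.38 in siNT, whereas CHRNB1 over CHRND overlaps.

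Markers of skeletal muscle, the tissue of this channel, were read beside these values. Of 16 fixed muscle markers 4 were listed (TNNT3, TTN, MYH3 and MYH7), and their summed level was 397 to 516 in siMNX1 libraries and 461 to 579 in siNT libraries. The groups overlapped for each of the 4, and limma called 0 of them, with 0 at an unadjusted p under 0.05. Over all genes the groups did not overlap for 24.0%, limma called 3.32%, and 18.4% had such an unadjusted p. With so few muscle markers nothing is read from these counts. The myogenic factors MYOD1, MYOG, MYF5 and MYF6, and DES, ACTA1 and CKM, were not analysed here. Of 4 delta cell markers 3 were listed, and limma called SST and HHEX higher but not LEPR (log2 fold change 0.27, adjusted p = 0.346), with a summed level of 1430 to 1519 in siMNX1 and 385 to 400 in siNT. The part of SST and HHEX in the CHRNA1 difference was not tested. Of 10 markers of autonomic and other neurons 4 were listed (SNAP25, PRPH, TH and SLC17A6), with a summed level of 2434 to 2694 in siMNX1 and 2258 to 2518 in siNT.

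The neuronal-type nicotinic genes held most of the family's RNA. CHRNB2 (chromosome 1, 154567781 to 154580026, plus strand), the common beta subunit of brain nicotinic receptors, had 1791, 1949 and 1866 in siMNX1 libraries, against 2097, 1977 and 2069 in siNT libraries. Each siMNX1 value was below each siNT value, by a small margin. The log2 fold change was -0.13 (95% interval -0.26 to -0.01), a mean ratio of 0.913. CHRNA5 (chromosome 15, 78565520 to 78595269, plus strand) is an accessory subunit that joins channels made by other alpha and beta subunits. It had 1304, 1185 and 1179 in siMNX1 libraries, against 1407, 1529 and 1374 in siNT libraries, also without overlap. The log2 fold change was -0.23 (95% interval -0.38 to -0.08), a mean ratio of 0.851. Neither CHRNB2 nor CHRNA5 passed the adjusted threshold in limma.

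CHRNA5 shares its locus with CHRNA3 (chromosome 15, 78593052 to 78621295, minus strand) and CHRNB4 (78624119 to 78727754, minus strand), which form the ganglionic receptor of autonomic neurons. CHRNA3 had 30.7, 61.8 and 34.6 in siMNX1 libraries, against 49.96, 63.9 and 46.4 in siNT libraries. Replicate 2 of siMNX1 was the high library of its group and the groups overlapped (log2 fold change -0.38, 95% interval -1.01 to 0.25). CHRNB4 was the lowest member, with 15.6, 15.1 and 21.0 in siMNX1 libraries, against 16.6, 23.8 and 15.2 in siNT libraries. Its log2 fold change was -0.09 (95% interval -0.78 to 0.61), which became 0.10 without siNT replicate 2. Per length CHRNA5 stood at 33.7 ± 12.5 times the level of CHRNA3 in siMNX1 and 28.7 ± 3.10 times in siNT (SD, n = 3 each). Exons of CHRNA5 and CHRNA3 overlap on opposite strands by 198 bases, and 23.0% of CHRNA5 exon bases are also exon of ENSG00000261762 on the opposite strand. ENSG00000261762 had 328 ± 11.05 in siMNX1 and 377 ± 23.6 in siNT (log2 fold change -0.20). The handling of strand is not given in the sources used here, so reads in these overlaps cannot be told apart.

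CHRNA7 (chromosome 15, 31923438 to 32173018, plus strand) forms channels by itself. It had 200, 184 and 259 in siMNX1 libraries, against 227, 281 and 273 in siNT libraries. Replicate 3 of siMNX1 lay inside the siNT range, and the log2 fold change was -0.29 (95% interval -0.62 to 0.04). CHRNA7 has a partial duplicate, CHRFAM7A: of all 50-base words in CHRNA7 transcripts, 23.7% also occur in transcripts of CHRFAM7A. The CHRNA7 values are therefore uncertain. CHRNA1, CHRND and CHRM4 shared 0 such words with any other gene. CHRNA10 (chromosome 11, 3665587 to 3671384, minus strand), the partner of CHRNA9 in cochlear hair cells, had 27.5, 18.4 and 24.1 in siMNX1 libraries, against 17.3, 18.5 and 20.8 in siNT libraries. The CHRNA10 groups overlapped (log2 fold change 0.28, 95% interval -0.34 to 0.90). Of CHRNA10 exon bases 4.92% are also exon of NUP98 on the same strand. NUP98 had 2649 ± 304 in siMNX1 and 2765 ± 194 in siNT. Whether its reads enter the low CHRNA10 values was not tested.

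The muscarinic genes lay slightly higher in siMNX1 cells. CHRM3 (chromosome 1, 239386565 to 239915452, plus strand), the main muscarinic receptor of beta cells, had 409, 418 and 396 in siMNX1 libraries, against 391, 376 and 394 in siNT libraries. The groups did not overlap, but the lowest siMNX1 and highest siNT values were 396 and 394. The log2 fold change was 0.07 with a 95% interval of -0.10 to 0.25. CHRM4 (chromosome 11, 46385098 to 46386608, minus strand) had 128, 155 and 119 in siMNX1 libraries, against 114, 108 and 96.4 in siNT libraries. Every siMNX1 value was above every siNT value, with a mean ratio of 1.26 and a log2 fold change of 0.33 (95% interval -0.0029 to 0.66). Neither passed the threshold.

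Of the 11 members, limma called 1 lower (CHRNA1), where it called 1.33% of all genes lower, and 0 higher, where it called 1.99% higher (3.32% in either direction). Of the 11, 3 had an unadjusted p under 0.05 (CHRNA1, CHRNA5 and CHRNB2), where 18.4% of all genes did. The groups did not overlap for 5 members, 3 lower and 2 higher with siMNX1, where they did not overlap for 24.0% of all genes, 12.1% lower and 12.0% higher. The median log2 fold change of the 11 was -0.09, beside -4.5e-04 over all genes. Nothing is read from these counts, since the family was chosen on this contrast. Without CHRNA1 the other 10 members ran from -0.38 to 0.33, with a median of -0.07.

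**Figure D3:**
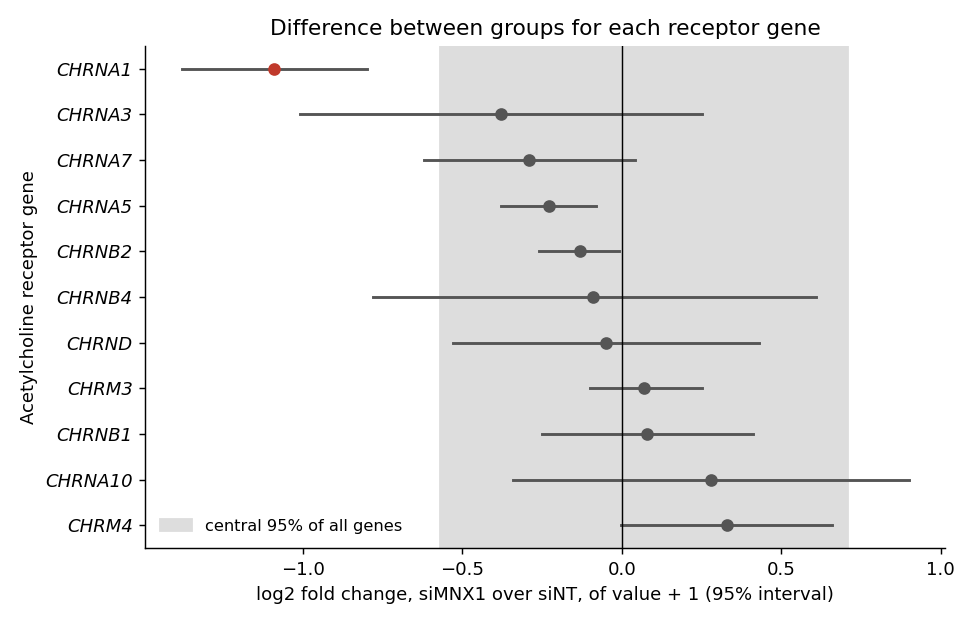
Log2 fold change of siMNX1 over siNT for each receptor gene, with its 95% interval from the limma fit. The grey band spans -0.57 to 0.71, the central 95% of all genes. CHRNA1 at -1.09 lies outside the band and the other 10 genes lie inside it.

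Levels of different members were ordered per length. In siNT cells CHRNA5 stood highest at 397 ± 22.6 normalized counts per kb of exon, before CHRNB2 at 349 ± 10.7, CHRNA1 at 103 ± 10.05 and CHRM4 at 70.3 ± 6.03 (SD, n = 3). CHRM4 overlapped the next gene, CHRNB1, at 58.2 ± 11.1. CHRM3 followed at 43.4 ± 1.08 and CHRNA7 at 31.6 ± 3.57. CHRND at 17.3 ± 2.66 overlapped CHRNA3 at 14.0 ± 2.41, and CHRNA10 at 9.39 ± 0.879 overlapped CHRNB4 at 7.06 ± 1.76. In siMNX1 cells CHRNA5 (337 ± 19.4 per kb) and CHRNB2 (318 ± 13.4) kept ranks 1 and 2. CHRNA1, at 48.2 ± 6.18, was at rank 5, against rank 3 in siNT cells. The siMNX1 libraries of CHRNA1 (41.9 to 54.2 per kb) overlapped those of the next gene, CHRM3 (44.5 to 46.9). CHRNA1 made up 4.96% of the family's summed level per kb in siMNX1 and 9.34% in siNT. With the longest transcript as the length, CHRNA1 had 73.7 per kb in siMNX1, above the CHRNB1 mean of 69.96, and 157 in siNT. With the exons of all transcripts CHRNA1 had 30.1 in siMNX1, below the CHRM3 mean of 33.5. In siNT it then had 64.1, at rank 4.

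The genes whose profile over the 6 libraries lay closest to that of CHRNA1 were found by the root mean square difference of log2 values centred on each gene's mean, among 12677 genes with a mean of at least 50. They were GALNT14 (0.118), which starts O-linked glycosylation, CDC42EP2 (0.118), an effector of the GTPase Cdc42, the retinol carrier gene RBP4 (0.134), the pseudogene SP3P (0.142) and the transcription factor gene GATA5 (0.153). GALNT14 had 109 ± 6.14 in siMNX1 and 245 ± 14.3 in siNT. Limma called all 5 lower with siMNX1, with log2 fold changes of -1.15 to -0.85, where it called 1.33% of all genes lower. Likeness to CHRNA1 selects genes with such a difference, so these calls support nothing. SP3P, as a pseudogene, may share reads with its parent gene. Among the receptor genes compared, CHRNA7 (0.432, rank 517) and CHRNA5 (0.437, rank 566) came nearest. Each profile spans both groups, so the group difference that the family was chosen on enters this likeness. Shared regulation was not tested.

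Neighbouring genes were read by position. Of 3 tested genes within 250 kb of CHRNA1, limma called 0, and 0 had an unadjusted p under 0.05. Over all genes limma called 3.32%, and 18.4% had such an unadjusted p. With so few genes 0 calls were likely in any case, so nothing about position is read from them. CHN1, which encodes a Rac GTPase-activating protein, lies 11.4 kb away and had 473 ± 32.0 in siMNX1 and 487 ± 35.6 in siNT (log2 fold change -0.04, limma, adjusted p = 0.849). The pseudogene H3P6, at 27.3 kb, had a log2 fold change of 0.02 and WIPF1, at 64.7 kb, one of -0.31 (limma, adjusted p = 0.925 and 0.322). Left-out libraries turned the small differences of CHN1 (-0.09 to 0.02) and H3P6 (-0.05 to 0.08).

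Around all 11 members, limma called 2 genes higher and 2 lower of 80, where it called 1.99% of all genes higher and 1.33% lower. MDK, which encodes the growth factor midkine, lies 1.26 kb from CHRM4 and had 9242, 9164 and 9013 in siMNX1 libraries, against 5808, 5396 and 5430 in siNT libraries. MDK rose in siMNX1 cells with a log2 fold change of 0.72 (limma, adjusted p = 4.43e-05), and its level is far above that of CHRM4. Whether MDK bears on the CHRM4 values was not tested. The other 3 lie between 106.0 and 225.0 kb from CHRNB1. They are the readthrough SENP3-EIF4A1, which shares reads with its parts (log2 fold change -1.99, limma, adjusted p = 0.0112), the translation factor EIF5A (-0.19, adjusted p = 0.0431) and the synaptic scaffold DLG4 (0.45, adjusted p = 0.0249). The SENP3-EIF4A1 call ended without siNT replicate 2 (adjusted p = 0.0567) or 3 (0.0646). The EIF5A and DLG4 calls ended in 5 of 6 left-out cases each, all but siMNX1 replicate 2, with adjusted p up to 0.136 and 0.114. Over the other settings the adjusted p was 0.00737 to 0.0488 for SENP3-EIF4A1, 0.0337 to 0.195 for EIF5A and 0.0204 to 0.0859 for DLG4.

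The partner genes were taken from 6 lists, and limma called 5 higher and 2 lower of the 64 listed members, where it called 1.99% of all genes higher and 1.33% lower. In the list of acetylcholine synthesis, transport and breakdown, 7 of 12 genes were listed and limma called 0. At an unadjusted p under 0.05, 1 was lower, where 18.4% of all genes had such a p in either direction. The choline transporter-like gene SLC44A1 had 2426 ± 58.4 in siMNX1 and 2642 ± 109 in siNT (log2 fold change -0.12, limma, adjusted p = 0.243), and SLC44A3 had a log2 fold change of -0.15 (adjusted p = 0.376). CHAT, which makes acetylcholine, ACHE, which breaks it down, and the choline transporter gene SLC5A7 were not analysed here. The chaperone and Ly6 list had 8 of 17 genes listed and limma called 0, with 2 lower at an unadjusted p under 0.05, beside the same 18.4%. Its log2 fold changes ran from -1.06, in the listed gene of lowest level, to 0.33, with a median of -0.03. CANX, an endoplasmic reticulum chaperone of nascent subunits, had 14451 ± 978 in siMNX1 and 14933 ± 140 in siNT, and TMX3, a thiol oxidoreductase of the same compartment, had a log2 fold change of 0.09.

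In the list of endplate clustering genes, LRP4 fell and ERBB2 rose. LRP4 is the agrin receptor that starts the clustering of muscle acetylcholine receptors. It had 5209, 5967 and 5102 in siMNX1 libraries, against 8165, 8612 and 7877 in siNT libraries. Every siMNX1 value was below every siNT value. LRP4 fell with a log2 fold change of -0.60 (SE 0.065, limma, adjusted p = 0.00135), and the call held with each library left out (adjusted p up to 0.0101). ERBB2, a co-receptor for neuregulins, was higher, at 499 ± 21.4 in siMNX1 and 396 ± 1.82 in siNT (log2 fold change 0.33, limma, adjusted p = 0.0477). The ERBB2 call ended with each of the 6 libraries left out (adjusted p from 0.0805 to 0.157), with equal totals (0.0525), with equal 75th percentiles (0.0512), with no variance trend (0.0730) and with the replicate block (0.122), and its adjusted p was 0.0411 at the lowest. Of 12 listed genes, 1 was thus lower and 1 higher, with 5 lower and 1 higher at an unadjusted p under 0.05, where limma called 3.32% of all genes and 18.4% had such an unadjusted p. The median log2 fold change of the list was -0.06. AGRN, which encodes agrin itself and was named after its values were seen, had a log2 fold change of 0.01, and MUSK, DOK7 and RAPSN were not analysed here.

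In the muscarinic Gq list, 2 of 23 genes were higher and 1 lower, with 4 higher and 5 lower at an unadjusted p under 0.05, beside the same 3.32% and 18.4% of all genes. The list's median log2 fold change was 0.02. RGS4, which shortens Gq and Gi signals and dampens CHRM3 signalling in mouse beta cells, had 473, 383 and 438 in siMNX1 libraries, against 151, 158 and 179 in siNT libraries. RGS4 rose with a log2 fold change of 1.40 (limma, adjusted p = 2.55e-04). ITPR1, an inositol trisphosphate receptor of the calcium store, rose to 452 ± 56.5 in siMNX1, against 300 ± 7.85 in siNT (log2 fold change 0.58, limma, adjusted p = 0.0174). The ITPR1 call ended without siNT replicate 1 (adjusted p = 0.0551), 2 (0.0601) or 3 (0.0848), and over all alternatives the adjusted p was 0.0143 to 0.0848. ARRB1, an arrestin that uncouples activated receptors, fell to 203 ± 15.7 in siMNX1, against 284 ± 17.3 in siNT (log2 fold change -0.48, limma, adjusted p = 0.0398), and that call ended with each of the 6 libraries left out (adjusted p from 0.0697 to 0.159), while the other settings gave 0.0349 to 0.111. The Gq subunit genes GNAQ and GNA11, named after their values were seen, had log2 fold changes of 0.03 and -0.01.

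**Figure D4:**
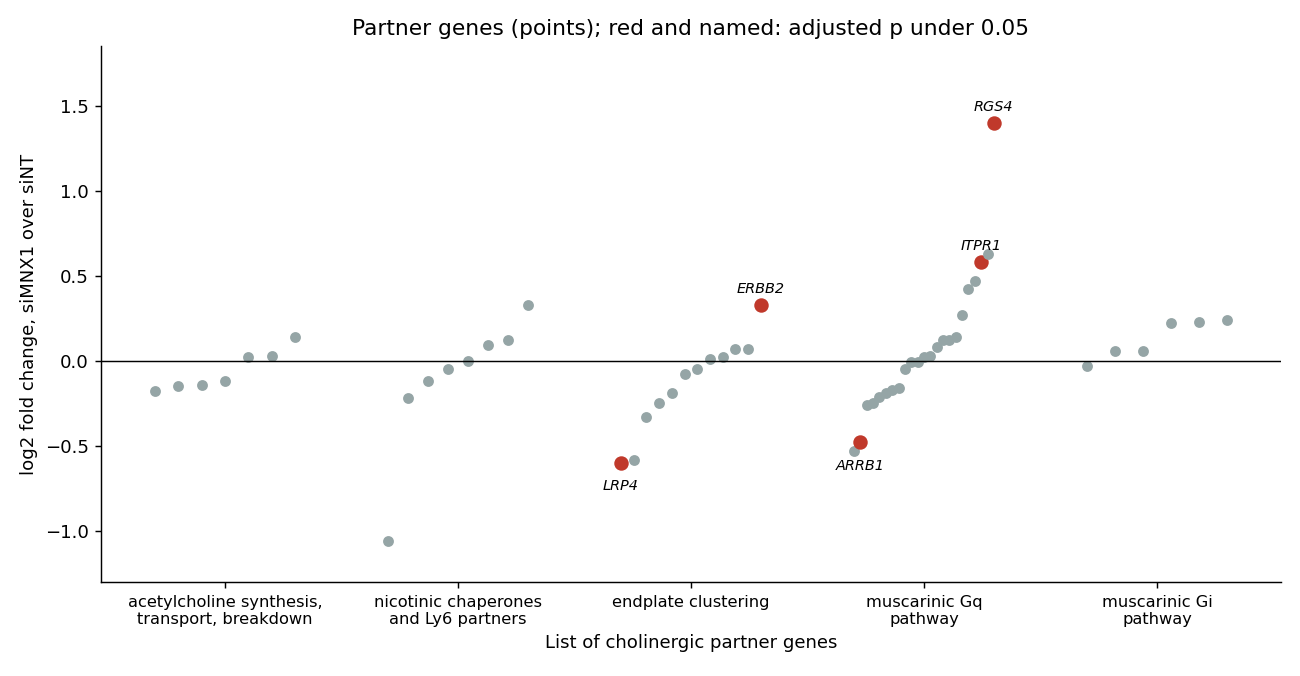
Log2 fold change of siMNX1 over siNT for each listed partner gene of 5 lists, without the Cys-loop subunits. Red named points passed an adjusted p of 0.05 in limma, from LRP4 at -0.60 to RGS4 at 1.40, and grey points did not.

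In the muscarinic Gi list limma called 0 of 6 genes, with 3 higher at an unadjusted p under 0.05 and a median log2 fold change of 0.14. Over all genes limma called 3.32%, and 18.4% had such an unadjusted p. GNAI2, a Gi subunit, had 10953 ± 212 in siMNX1 and 10492 ± 105 in siNT (log2 fold change 0.06, limma, adjusted p = 0.437), and GNAO1 had a log2 fold change of -0.03. Other Cys-loop subunits, relatives of the nicotinic genes, gave 2 higher and 0 lower of 8, where limma called 1.99% of all genes higher and 1.33% lower. GABRA2, a subunit of the GABA receptor, had 1780 ± 73.8 in siMNX1 and 614 ± 74.1 in siNT (log2 fold change 1.54, limma, adjusted p = 2.14e-05).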

How the data were processed

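RNA of 6 EndoC-βH1 libraries was analysed from 1 deposited table. Its values are normalized counts made by the authors (unit signal, with decimals, none below 0). The submitters' processing notes name GRCh38 as the build and, without saying what each did, DESeq2 1.26.0, DESeq, STAR 2.7.6a, RSEM 1.3.1 and R 3.6.3. Annotation, gene filter and strand handling are not given in those notes or the other sources used here. Per the labels' protocols, libraries were made with a kit for low RNA input and ribosomal RNA was depleted. Only 25.8% to 47.4% of values under 10 lay within 0.02 of a whole multiple of a library's step, so reads were not recovered, no count model was fitted, and no counting interval is given.

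Values were analysed as log2(value + 1) with limma 3.58.1 (R 4.3.3), a model of group and a variance trend, with Benjamini-Hochberg adjustment over 16792 genes. A minimum mean of 5 removed 0 genes (lowest mean 6.57). Fold changes understate changes of low genes. Groups came from the titles. No value above 0 was identical between libraries. The fit was tested on simulated data (siMNX1 against siNT, 16792 genes), where it found 58% of genes with a 1.5-fold change, 80% at 2-fold, 90% at 4-fold and 100% at 8-fold. Of the simulated calls 6.82% were false, and 1 gene was called when none had been changed. The simulated log2 values had independent normal noise with the variances that the fit had estimated. These rates therefore hold under the fit's own assumptions and may differ for the real libraries.

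The members and lists were chosen with earlier results of these data known. Genes named were every member, MNX1, SST, in each list up to 4 called genes or else the 2 of highest mean, called neighbours within 250 kb, the neighbours of CHRNA1, and the 5 genes most like CHRNA1. Missing list members were named without values, and 1 called gene of the Cys-loop list is not reported here. AGRN, GNAQ and GNA11 were named outside this rule. Positions and lengths came from GENCODE 29 on GRCh38, and promoters from RefSeq on GRCh38.p14. Symbols were given for 14738 genes and 417 more were added from a gene table. Python 3.11.15, numpy 2.4.6, pandas 2.3.3 and matplotlib 3.10.9 were used.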

Additional observations from a re-analysis of the deposited data

How the results depend on the processing

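CHRNA1 kept its direction and its side of the threshold in 8 other settings (log2 fold change -1.09 to -1.07) and with each library left out (-1.18 to -0.99). Settings that change only the variance model cannot move a fold change. The adjusted p of CHRNA1 ran from 0.0016 to 0.0328 over the 8 settings (limma). It is a description only, since the family was chosen on this contrast. Among the other 10 members limma called 0 genes in every setting run (0 to 0 with libraries left out). With no variance trend 131 genes were higher and 60 lower. With libraries left out, counts were 133 to 257 higher and 64 to 179 lower, with fewer samples in each fit, and fell by over 1.5 times in both directions for every library but siMNX1 replicate 2. No pairing by the numbers in the titles was seen: deviations of same-numbered libraries correlated at -0.08, -0.08 and -0.07. Differently numbered libraries across the groups correlated at -0.02 to 0.10. These correlations cannot exclude a paired design. With a replicate block, 162 genes were higher and 75 lower. In this balanced design a block cannot move a fold change, so the -1.09 of CHRNA1 was fixed in advance. Its adjusted p was 0.0166 with the block, against 0.00224 in the main fit (limma).

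With no variance trend, and also with the replicate block, calls became 0 higher in the endplate list, 1 higher and 0 lower in the Gq list, 1 higher in the Cys-loop list, and 1 higher and 1 lower among neighbours. Equal totals and equal 75th percentiles each gave 0 higher in the endplate list, and a minimum mean of 50, which drops SENP3-EIF4A1, gave 1 lower neighbour. With libraries left out, calls were 0 to 0 higher and 1 to 1 lower in the endplate list, 1 to 2 higher and 0 to 1 lower in the Gq list, 1 to 2 higher and 0 to 0 lower in the Cys-loop list, and 1 to 2 higher and 0 to 2 lower among neighbours. The synthesis, chaperone and Gi lists had 0 calls in each. Small differences changed sign with 1 library left out for CHRNB1 (-0.05 to 0.22), CHRND (-0.18 to 0.06), CHRNB4 (-0.23 to 0.10), GNAO1 (-0.08 to 0.02), CHN1 (-0.09 to 0.02) and H3P6 (-0.05 to 0.08). Apart from what the settings' own construction shows, the cause was not tested. Of the 5 genes most like CHRNA1, 4 stayed with a pseudocount of 5 and 4 with a minimum mean of 20. The exons of all transcripts as a length were added after seeing the data. Members with low values, such as CHRNB4 and CHRNA10, had wide intervals, and smaller changes were not detectable in them.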
